A study of Mus musculus with 6 samples.

Results

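The 6 spindle assembly checkpoint genes Ttk, Bub1, Bub3, Bub1b, Mad1l1 and Mad2l1 were taken from the authors' deposited table of 10896 genes by their symbols. All 6 had a row, with reads in both groups. Mouse oocytes at the germinal vesicle (GV) stage, the prophase arrest before meiosis resumes, had been sequenced for their RNA in 6 samples of 50 oocytes, 3 grown in vitro and 3 grown in vivo. Every oocyte came from a (C57BL x CBA) F1 female. The in vitro group grew inside follicles that collagenase had freed from the ovaries of 2 to 5 females aged 10 to 12 days. These follicles were cultured on membrane inserts in MEM-alpha with 5% fetal bovine serum, insulin, transferrin, selenium and 0.01 µg/ml follicle stimulating hormone. The in vivo group was released by needle from ovaries of females 7 to 11 weeks old, in M2 medium with dbcAMP. Culture and donor age cannot be told apart in any difference between these groups. Each sample was a pool, and no label states that the samples within a group had separate cultures or animals behind them, so p-values measure only the spread between these samples, which may be technical.

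The spindle assembly checkpoint delays anaphase until chromosomes are attached to the spindle. At a kinetochore without microtubules the kinase Ttk (Mps1) phosphorylates the scaffold Knl1, which recruits Bub1 with Bub3, and then the Mad1l1-Mad2l1 complex. Mad2l1, Bub1b (BubR1) and Bub3 bind Cdc20 and so inhibit the anaphase promoting complex (APC/C), a ubiquitin ligase that marks cyclin B and securin for destruction. In mouse oocytes the checkpoint times the first meiotic division, and Bub1b is also known for a part in holding the prophase arrest. A GV oocyte stores transcripts of these genes, many of which are translated only after meiosis resumes.

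Bub1b, Bub1 and Ttk were called lower and Mad2l1 higher in oocytes grown in vitro, while Bub3 and Mad1l1 were not called. By the authors' deposited table, Bub1b was 1.79-fold lower, Bub1 1.42-fold lower, Ttk 1.33-fold lower and Mad2l1 1.24-fold higher in vitro. A gene was called at a PPEE below 0.05. The PPEE of that table was read as the posterior probability of equal expression in both groups, and is not a p-value. Of the 6 genes, 1 was called higher and 3 lower, where the shares over the whole of the authors' deposited table were 6.75% for higher and 8.31% for lower. At a PPEE below 0.01 (4.78% of all genes higher, 6.53% lower) the calls of Ttk and Mad2l1 in the authors' deposited table were lost. At a PPEE below 0.05 with a change of at least 1.5-fold also required (4.42% higher, 5.69% lower) Bub1b alone was called. Calls depended on level: among the 1446 genes whose mean was at least that of Mad1l1, the lowest of the 6, 10.3% were called higher and 13.5% lower. The median log2 change of the 6 genes, in vitro over in vivo, was -0.30, beside 0.02 over all genes of the authors' deposited table.

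**Figure D1:**
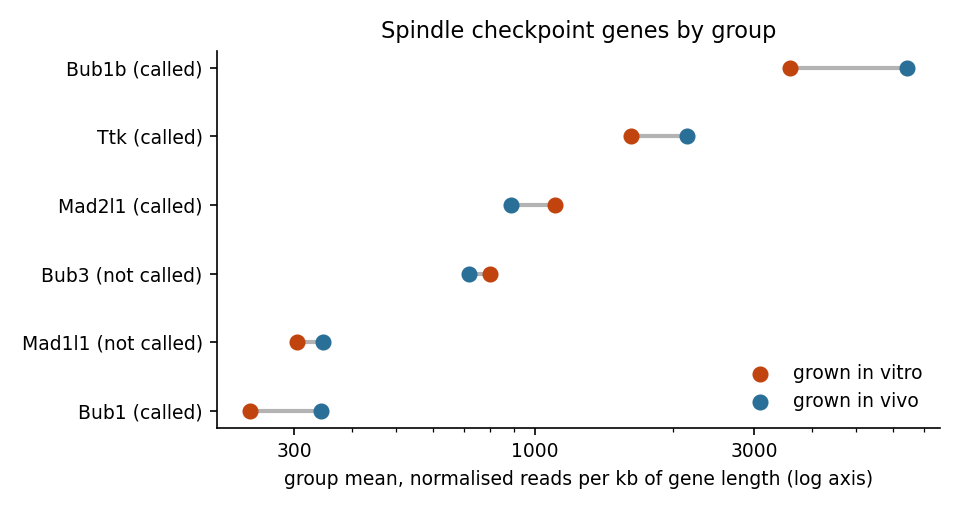
Group means of the 6 checkpoint genes in the authors' deposited table, divided by gene length in kb, on a log axis; orange points are oocytes grown in vitro, blue points oocytes grown in vivo, and each line joins both means of a gene. Bub1b lies farthest right in both groups, at 3590 and 6439, and has the widest gap, and Mad2l1 and Bub3 are the genes with the in vitro point on the right.

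Ttk (gene identifier 22137), the kinase that starts checkpoint signalling at the kinetochore, was the second most abundant of the 6 transcripts. In the authors' deposited table its mean was 4697 normalised reads for the in vitro group and 6237 for the in vivo group, a log2 change of -0.41 with a PPEE of 0.0109. Its length-corrected level, in normalised reads per kb, was 1617 in vitro and 2148 in vivo in the authors' deposited table. It was above 98.0% of genes in vitro and 98.6% in vivo. Of all genes, 54.7% changed by less than Ttk did, so the called decrease was of a middling size for this table.

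Bub1 (gene identifier 12235), the kinase that docks on Knl1 and recruits further checkpoint proteins, had means of 1043 (in vitro) and 1485 (in vivo) normalised reads in the authors' deposited table. The log2 change was -0.51 and the PPEE 0.00932, by the authors' deposited table. Per kb Bub1 stood at 241 in vitro and 343 in vivo by the authors' deposited table, the lowest of the 6 genes in both groups at a deposited length of 4335 bases. The nearest GENCODE transcript is 3421 bases long, and divided by that length its level was 305 in vitro and 434 in vivo, beside 304 and 347 for Mad1l1. Its partner Bub3 (gene identifier 12237), a WD-repeat protein that carries Bub1 and Bub1b to the kinetochore, had means of 1644 in vitro and 1480 in vivo in the authors' deposited table. Bub3 was not called there, with a log2 change of 0.15 and a PPEE of 1. How the PPEE was made is not stated, so this value does not show Bub3 to be equal in both groups. The ratio of Bub1 to Bub3 per kb was 0.301 in vitro and 0.476 in vivo in the authors' deposited table, so the transcript of the kinase was scarcer beside that of its partner in vitro.

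Bub1b (gene identifier 12236), the pseudokinase BubR1 of the inhibitory complex, had both the highest level and the largest change of the 6 genes. The authors' deposited table gave it 13172 normalised reads in vitro and 23626 in vivo, a log2 change of -0.84 with a PPEE of 5.15e-08. Its level per kb ranked 88 in vitro and 43 in vivo among all 10896 genes of the authors' deposited table. A larger share of genes, 84.0%, changed by less than Bub1b than by less than any other of the 6. The ratio of Bub1b to Bub3 per kb was 4.49 in vitro against 8.94 in vivo in the authors' deposited table, and that of Bub1b to Mad2l1 was 3.25 against 7.24. These ratios set the 3 checkpoint proteins of the inhibitory complex side by side at the level of RNA, and Bub1b was less in excess in vitro.

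Mad1l1 (gene identifier 17120) is the kinetochore receptor of Mad2l1 (gene identifier 56150), which changes its fold there and then binds Cdc20. Mad2l1 had means of 1905 normalised reads in vitro and 1533 in vivo in the authors' deposited table, a log2 change of 0.31 with a PPEE of 0.0288. Mad1l1 had 802 and 915, a log2 change of -0.19 and a PPEE of 0.963, by the authors' deposited table, and was not called. Mad2l1 outnumbered its receptor per kb 3.63 to 1 in vitro and 2.56 to 1 in vivo by the authors' deposited table. The size of these ratios depends on the division by length, at 1725 bases for Mad2l1 and 2640 for Mad1l1. Without it Mad2l1 was also the higher, by a smaller ratio. No test of such a ratio was possible, since both values are group means.

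Levels per kb of the deposited lengths followed one order in both groups, from Bub1b through Ttk, Mad2l1, Bub3 and Mad1l1 to Bub1. The first 3 places were the same without division by length and with transcript lengths, while the lower places depended on that choice. Without division Bub1 took place 5 in vitro and 4 in vivo and Mad1l1 place 6 in both groups. In vivo the last neighbours, Mad1l1 at 347 and Bub1 at 343 in the authors' deposited table, were nearly equal, and without a spread for the means no neighbours in the order could be tested. Bub1b alone made up 46.9% of the summed level per kb of the 6 genes in vitro and 59.2% in vivo in the authors' deposited table. The share of Mad2l1 was 14.4% in vitro and 8.17% in vivo, and that of Ttk 21.1% and 19.7%, by the authors' deposited table. With Bub1b the sum was 7656 normalised reads per kb in vitro and 10885 in vivo, and without it 4066 and 4446, so most of the difference in the sum of the authors' deposited table lay in this one gene.

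Reads of single libraries stood behind the group means, and for part of the genes they could be recovered as the only set of whole reads that gives the mean. They were recovered for 8942 genes in both groups, and the libraries were called A, B and C within each group, since the replicate numbers of the labels could not be tied to them. Of the 6 checkpoint genes, Mad1l1 was the one with a single solution in both groups. Bub1, Bub3 and Mad2l1 had between 7 and 14 solutions in each group and were not used, and the means of Ttk and Bub1b were too high to be solved. No spread between samples is therefore available for the 4 called genes.

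Mad1l1 had 1111, 672 and 555 recovered reads in the libraries grown in vitro, against 1151, 999 and 824 in those grown in vivo. Divided by the library factors these were 1021, 697 and 689 normalised reads in vitro and 931, 885 and 931 in vivo. In vitro library A lay above all 3 in vivo libraries and the other in vitro libraries lay below them, so the groups overlapped. The in vitro mean was 802 ± 190 (SD, n = 3 libraries), the in vivo mean 915 ± 26.4 (SD, n = 3 libraries). By limma voom over all recovered genes the log2 change was -0.20 with a standard error of 0.16 and a Benjamini-Hochberg adjusted p of 0.410. Without in vitro library A it was -0.40 with a standard error of 0.13 and a limma voom adjusted p of 0.0278, so this one library decided the call. At means of 700 to 1000 a solution can also arise by chance: of means shifted by a small random amount, 33.0% in vitro and 46.3% in vivo still had one.

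The spread between libraries was measured in genes with recovered reads. Among recovered genes with means of 700 to 1000, the median SD of log2 values was 0.19 in vitro and 0.11 in vivo (362 genes). For genes called in the authors' deposited table at a change under 1.5-fold, as for Bub1, Ttk and Mad2l1, limma voom with Benjamini-Hochberg adjustment called 61 of 314 (19.4%). Over all sizes of change it called 764 of 1215 (62.9%), each in the direction of the authors' deposited table. The reads were solved from the group means of that same table, so the shared direction is no separate support for the calls. These recovered genes reach a mean of 1000, below the means of Bub1, Ttk and Mad2l1, and a gene that limma voom did not call is not shown to be equal. The number of limma voom calls changed when a library was left out. With all 6 libraries 1083 genes were called. Without in vivo library A the number was 41, without in vivo library B 73 and without in vivo library C 621. Without in vitro library C it was 62, without in vitro library B 361 and without in vitro library A 2534. Each such fit has a smaller group, so fewer calls can follow from that alone. The number rose only without in vitro library A.

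The promoters of the 4 called genes are shown because CCAAT boxes, the binding letters of the factor NF-Y, are known from promoters of genes expressed in dividing cells. Each sequence is the 120 bases before the transcription start in the RefSeq annotation of build GRCm38.p6, read 5′ to 3′ on the gene's strand, with CCAAT or its reverse complement ATTGG in capitals. They cover chr2:127831860-127831979 (minus strand) for Bub1, chr2:118598091-118598210 (plus) for Bub1b, chr9:83834569-83834688 (plus) for Ttk and chr6:66535101-66535220 (plus) for Mad2l1. The submitters named build mm9, so these positions are RefSeq's and not those of the authors' alignment.
Bub1: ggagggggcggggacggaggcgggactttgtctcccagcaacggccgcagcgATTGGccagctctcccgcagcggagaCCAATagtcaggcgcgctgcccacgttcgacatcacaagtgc
Bub1b: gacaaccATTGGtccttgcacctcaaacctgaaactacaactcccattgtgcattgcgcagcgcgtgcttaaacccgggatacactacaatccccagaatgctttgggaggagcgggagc
Ttk: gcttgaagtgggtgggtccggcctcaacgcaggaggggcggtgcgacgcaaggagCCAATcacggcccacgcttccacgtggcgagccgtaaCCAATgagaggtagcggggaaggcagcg
Mad2l1: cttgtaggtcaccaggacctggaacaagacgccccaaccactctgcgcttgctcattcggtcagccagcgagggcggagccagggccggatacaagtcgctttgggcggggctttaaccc

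The 3 genes called lower in vitro each hold CCAAT in this stretch. Mad2l1, called higher, holds none in the 250 bases before to 50 after its start. Bub1 has 2 copies, Ttk 2 and Bub1b 1, and Bub3, which was not called, has 2 as well. Mad1l1 has none. CCAAT on either strand is found in 37.4% of all 32851 RefSeq promoters of that length, and in 38.9% of the 11231 promoters of genes in the authors' deposited table. At least 2 copies are found in 11.7% and 14.4% of these. Whether CCAAT goes with the direction of change over all genes was not tested. A second motif of cell cycle promoters, the CHR element (TTTGAA on either strand, with no overlap with CCAAT), was found in the promoters of Bub1b, Bub3 and Ttk, and in 17.9% of all promoters and 12.6% of those of genes in the table. These matches are descriptions of the letters, since no binding was measured.

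The 3′ ends of the transcripts were searched for the cytoplasmic polyadenylation element (CPE), a site through which oocytes are known to lengthen poly(A) tails and start translation of stored RNA. The letters TTTTAT or TTTTAAT were counted on the transcript's strand in the last 150 bases of the GENCODE transcript (build GRCm38) nearest in length to the authors' deposited gene length. The sites of the 3 genes that hold one are printed with their flanks, with the element in capitals.
Bub1b: tttcactgtgtaTTTTATaataaaatagtt
Ttk: gttgtgcttttcTTTTATgcttttctgtaa
Mad2l1: aaagaactcttaTTTTAATgtttt

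Bub1b, the most abundant of the 6, has 2 copies, and the one printed begins 27 bases before the end, directly followed by the polyadenylation signal AATAAA. Ttk has 1, beginning 105 bases before the end, and Mad2l1 has 1, beginning 12 bases before it. The printed Mad2l1 stretch runs to the end of the transcript and holds neither AATAAA nor its variant ATTAAA. Such a signal does lie in the last 50 bases of Mad2l1, so this match follows the signal, unlike the printed match of Bub1b. Whether any of these matches acts as a CPE was not tested. Bub1, Bub3 and Mad1l1 have none in this window. For Bub1 the nearest transcript was 3421 bases long, against a deposited gene length of 4335, so its 3′ end may not be the one sequenced. Over 10173 genes of the authors' deposited table, 25.4% have at least 1 element in this window and 5.09% at least 2. In the authors' deposited table, genes with the element were called lower in vitro in 7.66% of cases and higher in 8.05%, and genes without it in 8.78% and 6.48%. These shares were not tested against each other.

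The other genes of the pathway were described with lists ordered by role, 62 genes of which 60 had a row in the authors' deposited table. Among these 60, calls numbered 5 for higher and 7 for lower, or 12 in all, beside 15.1% called of all genes. With the mean PPEE of the ranked list below 0.05, the calls for higher numbered 10, where that rule called 11.1% of all genes higher. Their median log2 change was 0.03, by the authors' deposited table. Called decreases lay in the kinetochore lists and among the APC/C and its substrates, and called increases among error correction, silencing and APC/C genes.

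**Figure D2:**
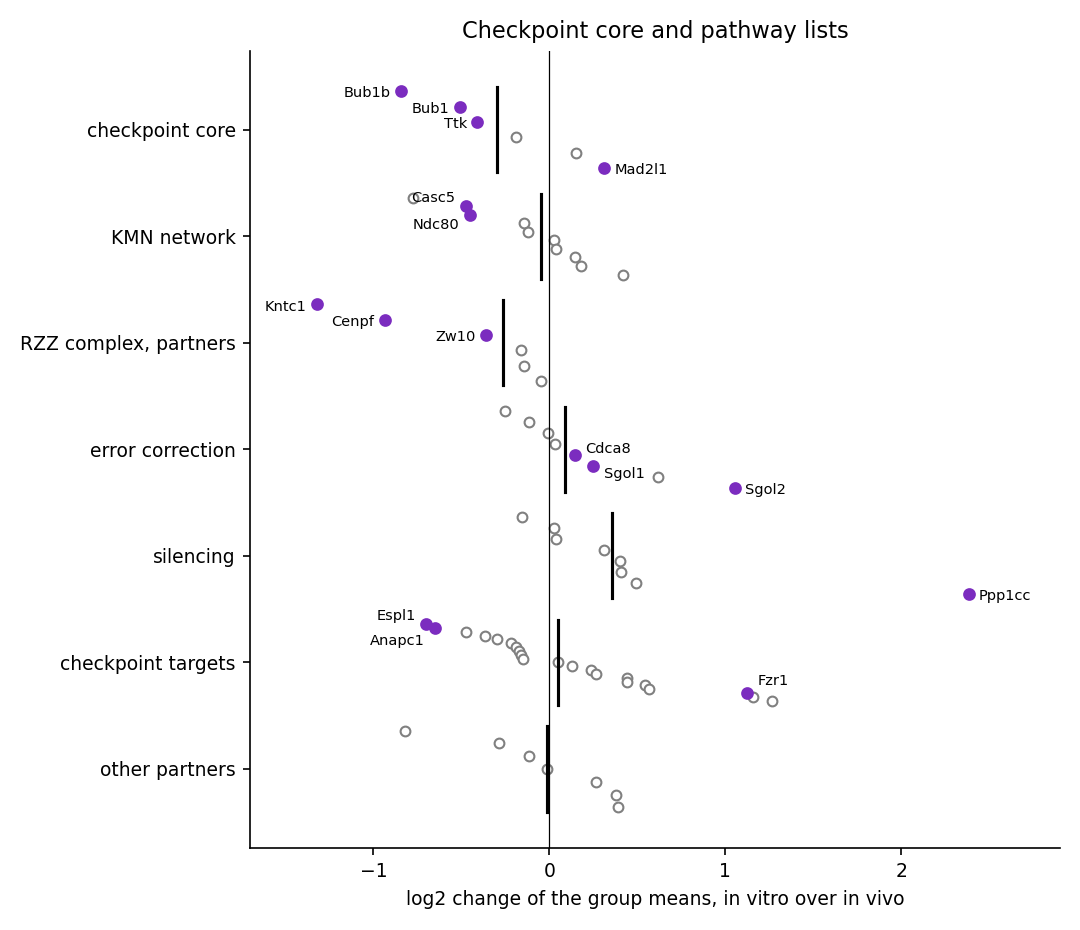
Log2 change of the group means in the authors' deposited table, in vitro over in vivo, for the 6 checkpoint genes and the 60 measured pathway genes by list; each point is a gene, filled purple points with names are called, and each vertical bar is the median of its list. Kntc1 at -1.32 lies farthest left and Ppp1cc at 2.38 farthest right.

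Of the 10 measured genes of the KMN network, the platform of Knl1, Mis12 and Ndc80 complexes on which checkpoint proteins assemble, 2 were called lower and none higher, with a median log2 change of -0.05. Casc5, the gene of the scaffold Knl1, changed by -0.48 (PPEE 0.0065) and Ndc80, a microtubule-binding subunit, by -0.45 (PPEE 3.38e-11), as log2 changes of the authors' deposited table. Among the RZZ complex and its partners, which bring Mad1l1 and dynein to the kinetochore, 3 of 6 were called lower and none higher, with a median of -0.26. In the authors' deposited table Kntc1 (Rod), a subunit of that complex, was 2.50-fold lower in vitro (PPEE 1.55e-08). Cenpf, a large protein of the outer kinetochore, was 1.91-fold lower (PPEE listed as 0), and Zw10, another subunit, 1.28-fold lower (PPEE 1.08e-09), by the authors' deposited table. All 5 called genes of these 2 lists were lower, and the remaining 11 of their 16 genes were not called. Over all genes of the authors' deposited table, 8.31% were called lower and 6.75% higher, and lists this short were not tested against those shares.

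The error correction list, the chromosomal passenger complex and its recruiters, had 3 of 8 genes called higher and none lower, with a median log2 change of 0.09. The shares over all genes were 6.75% for higher and 8.31% for lower, here and for the silencing list. Sgol2, a shugoshin that protects centromeric cohesin, was 2.08-fold higher in vitro by the authors' deposited table (PPEE 0.00284). Its relative Sgol1 was 1.19-fold higher (PPEE 0.00799) and Cdca8 (borealin), a subunit of the passenger complex, 1.10-fold higher (PPEE 0.0052) in the authors' deposited table. Of 8 measured genes for checkpoint silencing, Ppp1cc was the one called, and the list had a median of 0.36. Ppp1cc, a catalytic subunit of protein phosphatase 1, had means of 80.6 in vitro and 15.5 in vivo by the authors' deposited table (PPEE 0.0259). Trip13, the ATPase that opens Mad2l1 again, changed by 0.04 (PPEE 0.954) and its adaptor Mad2l1bp by 0.41 (PPEE 0.144), as log2 changes of the authors' deposited table, and neither was called.

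Among 21 measured genes of the APC/C, its activators and its substrates, 1 was called higher and 2 lower, beside 6.75% and 8.31% of all genes. Their median log2 change was 0.05. Fzr1 (Cdh1), the activator that works in prophase arrest, was 2.18-fold higher in vitro by the authors' deposited table (PPEE 0.0302). Cdc20, the activator that the checkpoint inhibits, had means of 972 in vitro and 809 in vivo in the authors' deposited table and was not called (PPEE 0.838). Anapc1, the largest subunit of the complex, was 1.57-fold lower (PPEE 0.0041) and Espl1 (separase), the protease that cuts cohesin, 1.63-fold lower (PPEE 0.00549) in the authors' deposited table. Of the 7 other kinases and partners of the checkpoint proteins none had a PPEE below 0.05, Plk1 at -0.82 on the log2 scale (PPEE 0.465) included, by the authors' deposited table.

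Recovered reads were available for 39 of the 60 pathway genes, 8 of them called by PPEE in the authors' deposited table. In all 8 the groups of libraries did not overlap, as for 35.2% of all recovered genes. The 8 were picked by a PPEE from these same samples, so their separation is no separate support for the calls. By limma voom with Benjamini-Hochberg adjustment over all recovered genes, 3 of the 39 were called higher and 2 lower in vitro, where the shares of all recovered genes were 6.34% for higher and 5.77% for lower. At an unadjusted p below 0.05 in limma voom the number was 11, where 31.1% of all recovered genes passed, so the pathway genes did not exceed that background. For Kntc1 202, 138 and 147 reads were recovered in vitro, against 623, 491 and 298 in vivo, and its limma voom adjusted p was 0.00503. Every in vivo library held more Kntc1 reads than any in vitro library. Sgol2 had 422, 375 and 386 reads in vitro against 206, 129 and 287 in vivo (limma voom adjusted p 0.0199). Ppp1cc had 36, 120 and 68 reads in vitro against 22, 17 and 12 in vivo (limma voom adjusted p 0.0281), so in vitro library A lay much nearer to the in vivo libraries than library B did. Fzr1 at 0.0207 and Anapc1 at 0.0291 also passed in limma voom by their adjusted p, while Ndc80 at 0.0587, Casc5 at 0.0782 and Sgol1 at 0.229 did not. With 1 library left out the limma voom calls of these 39 genes ranged from 0 to 7 higher and from 1 to 3 lower, the most without in vitro library A, and these counts moved with the calls over all recovered genes.

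**Figure D3:**
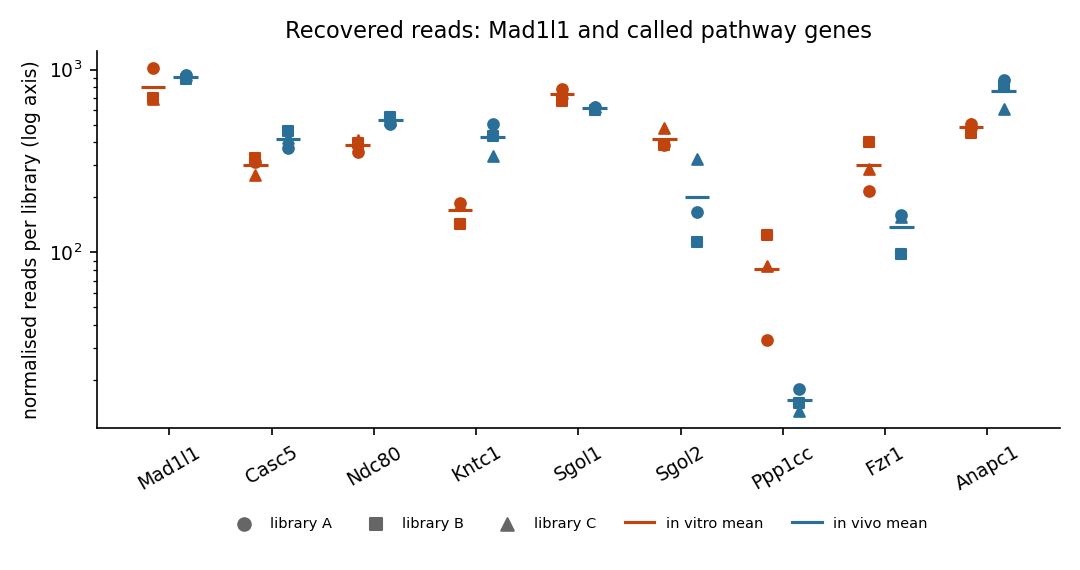
Normalised reads recovered for single libraries, on a log axis, for Mad1l1 and the 8 called pathway genes with recovered reads; orange marks are in vitro and blue marks in vivo libraries, shapes give libraries A, B and C of each group, which do not pair across groups, and bars are group means. For Mad1l1 the in vitro values of 689 to 1021 span the in vivo values of 885 to 931, while for the other 8 genes the groups do not overlap.

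For each called checkpoint gene the 3 genes nearest to it in log2 level per kb, over both group means, were listed. Such closeness over 2 values describes level and change alone. Bub1 lay nearest to Sf3b2, a splicing factor subunit, at a distance of 0.0211, Cdc45, a replication helicase component, and Lrrc57 in the authors' deposited table. Ttk lay nearest to Gm3259 at 0.0371, then to Prc1, a spindle midzone protein, and Fam151a, and Mad2l1 to Psmc1, a proteasome subunit, at 0.0166, Hmgb1 and Polr2g. Bub1b had no close neighbour: the nearest were Tle6, a subunit of the oocyte's subcortical maternal complex, at 0.281, the oocyte transcription factor Nobox at 0.345 and Rdx (radixin) at 0.365 in the authors' deposited table. Few genes have levels as high as Bub1b, which ranked 88 in vitro and 43 in vivo, so its larger distances are not a trait of this gene alone. Not all neighbours were called in the authors' deposited table. Beside Mad2l1, Psmc1 was called (PPEE 0.0343). Hmgb1 (PPEE 0.273) and Polr2g (PPEE 0.950) were not, at log2 changes of 0.36 and 0.31. Beside Bub1, Cdc45 alone was not called (PPEE 0.172), and beside Bub1b, Tle6 alone was called. All 3 neighbours of Ttk were called.

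The labelled cell type was checked with marker genes. All 14 oocyte markers had a row, and their summed means were 132177 in vitro and 183282 in vivo by the authors' deposited table. There Bmp15, Nlrp5 and Kit were called lower and none higher, where 8.31% of all genes were called lower and 6.75% higher. Of 12 granulosa and cumulus markers 9 had a row, 4 of them called higher in vitro (Fshr, Inha, Inhba and Hsd3b1) and none lower. The log2 changes of those not called were 0.51 for Cyp19a1, -0.03 for Gja1, -0.11 for Kitl, -0.34 for Nr5a2 and -0.74 for Cyp11a1. The summed means of the 9 were 478 in vitro and 294 in vivo in the authors' deposited table. Over single libraries the summed normalised reads of the 8 recovered granulosa markers were 434 to 539 in vitro and 277 to 289 in vivo, and the defining markers Foxl2 and Amh had no row. None of 7 theca and stroma markers and 1 of 5 blood markers had a row. Among 4 markers of proliferating cells none was called higher and 1, Top2a, was called lower, while Mki67 stood at 616 in vitro and 626 in vivo in the authors' deposited table. The summed means of these 4 were 3386 in vitro and 4234 in vivo, above those of the granulosa markers. Whether their reads came from oocytes or from somatic cells was not tested, so they give no measure of somatic cells here. The part of somatic cells in the differences of the checkpoint genes was not tested, and in pooled oocytes a smaller number of cells of a type and less RNA per cell cannot be told apart.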

How the data were processed

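The authors deposited 1 table that holds, for each gene, the signal of each group (its 3 samples averaged after scaling), a log2 ratio, a gene length and a PPEE between 0 and 1. Reads were aligned with BWA to mm9, per the submitters' processing notes, and cDNA was amplified with the SMARTer low input kit from 10 ng of RNA, per the labels' protocols. The strand setting and the program behind the scaling and the PPEE are not given in the sources used here. The deposited log2 ratio was recomputed from the deposited means after adding 0.599 to each, with a largest difference of 4.11e-09. Changes given here used the means with nothing added. Whole reads could be recovered with 1 step per library in shorter and in longer genes (92.9% and 94.8% of those with means up to 1000), so the deposited means were taken as not divided by length, and levels were divided by it to compare genes. The means themselves barely followed length (Spearman correlation across genes 0.061 in vitro and 0.0954 in vivo), and after division the correlation was -0.30 and -0.27, so levels per kb run lower in longer genes.

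The members and gene lists were chosen with earlier results of these data known. Genes named were all 6 members, every pathway gene with a PPEE below 0.05, Cdc20, Trip13 and Mad2l1bp, and the 3 genes nearest to each called member. Plk1, Mki67, Foxl2, Amh, the called markers and the granulosa markers that were not called were named after their values were seen. Whole reads were solved for means up to 200, as planned, and, as no member lay there, up to 1000, chosen after seeing the data, with each library between 0.4 and 1.9 times its group mean above 200. Of means of 700 to 1000, 93.3% in vitro and 96.5% in vivo had a single solution. The recovered reads summed to between 1375708 and 2087963 per library, with size factors of 1.09, 0.965 and 0.806 in vitro and 1.24, 1.13 and 0.885 in vivo. They were analysed with limma 3.58.1 voom in R 4.3.3, 2-sided, with Benjamini-Hochberg adjustment and a threshold of 0.05. The solving and limma voom were tested on simulated data. Exons of Mad1l1 share 37 bases (1.01%) with an antisense gene, and no other member overlaps a gene.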

Additional observations from a re-analysis of the deposited data

How the results depend on the processing

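The log2 changes of the 6 genes from the group means kept their direction under every added value and scaling tried. Those added values and scalings were too small beside the means and changes to reverse any of them. Of the 157 alternative values, 123 were labelled the same, 28 moved, 5 weaker and 1 stronger. Part of those labelled the same could not have differed. Scaling a whole group cannot change the order within it, and the minimum set on the mean lay far below the 6 genes. Leaving out genes at the highest PPEE cannot change a call, and the minimum on recovered reads removed no gene. The 123 is therefore no measure of how firm the results are. For counts, calls and places in the order a reversal was not defined. At a PPEE below 0.01 the calls of Ttk and Mad2l1 were lost, which left 0 checkpoint genes higher, and 3 pathway genes were higher. At a PPEE below 0.05 with a change of at least 1.5-fold also required, Bub1b alone remained, so 0 were higher and 1 lower. By that rule 3 pathway genes were higher and 4 lower. With the mean PPEE of the ranked list below 0.05, 1211 genes of the table were called higher in place of 735, and 10 pathway genes were. Without division by length the order by level changed: Mad1l1 took place 6 in both groups, Bub1 place 5 in vitro and 4 in vivo, and Bub3 place 5 in vivo. With the length of the nearest GENCODE transcript, an alternative chosen after seeing the data, Bub1 took place 5 and Mad1l1 place 6 in both groups. The limma voom log2 change of Mad1l1 ranged from -0.40 to -0.10 with 1 library left out. The planned TMM factors were not run. No paired analysis was possible because nothing ties the recovered libraries, or the group means, to the replicate numbers of the labels. Group means hold no spread between samples, so the calls of the 4 genes rest on the PPEE alone, whose making is not stated.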
